A study of Mus musculus with 9 samples.

Results

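Lung RNA of mice killed 6 hours after injurious ventilation was compared with that of control mice, gene by gene, to describe the later of the 2 time points of the study. The genes described are the 13069 protein-coding genes whose FPKM (fragments per kilobase of exon scaled to the mapped fragments of a library, a level per transcript length) averaged at least 1 over all 9 libraries, out of 21622 protein-coding genes and 27203 gene and locus identifiers in the table. FPKM was summed over the rows of a gene, which for 8541 of these genes are several. All mice were male C57BL/6, aged 6 to 8 weeks, and were anaesthetised with ketamine and xylazine and intubated. Mice of the VILI (ventilator-induced lung injury) groups were ventilated at a tidal volume of 20 ml/kg for 4 hours, and were killed at once (VILI 0 hours) or 6 hours later (VILI 6 hours, also "at 6 hours" here), and control mice were intubated but not ventilated. Each group holds 3 libraries. The control mice therefore shared the first anaesthesia and the tube, but not the hours on the ventilator. The study also describes maintained anaesthesia and muscle relaxation with pancuronium, and whether control mice received them is not stated. Which of the times after the control procedure applied to the mice sequenced is not given in the sources used here. Whole lung was sequenced, so fewer cells of a type and less RNA per cell cannot be told apart. Counts over gene lists cover every gene of the list that was tested, from a mean of 0.1 FPKM up, which over all lists is 678 genes, 643 of them members. Sele and Klre1 are named from the lists although their means were under 1 FPKM. The genes nearest the limit of 1 FPKM were Fbxo2 and Mrgprf just above it (mean FPKM 1.001 for both) and Ifit1bl2 and Vipr1 just below it (0.999 for both).

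Overstretching of the alveolar wall damages epithelium and endothelium, and the injured lung releases chemokines and cytokines that draw neutrophils out of the pulmonary capillaries. Macrophages, epithelium and endothelium answer through NF-kappaB, which drives chemokine genes and its own inhibitors, and through STAT3, which the interleukin-6 family activates and which drives acute-phase proteins and its own inhibitor Socs3. A general stress response with glucocorticoids, metallothioneins and antioxidant genes accompanies injury of the lung.

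Markers of lung cells were present in all 6 libraries compared. Sftpc, the surfactant protein of alveolar type 2 cells, was at 10650, 10948 and 11950 FPKM in control and 9684, 10439 and 10157 FPKM at 6 hours replicates 1, 2 and 3. Ager of alveolar type 1 cells, Scgb1a1 of club cells, Cdh5 of endothelium, Col1a2 of fibroblasts and Ptprc of leukocytes were also expressed in each, at no less than 40.3 FPKM.

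The 3 libraries of VILI 6 hours differed from each other more than those of control. The median SD of log2(FPKM + 0.1) over the members was 0.266 in VILI 6 hours, against 0.161 in VILI 0 hours and 0.0996 in control, and an SD above 0.5 was found for 2614, 856 and 227 members. VILI 6 hours replicate 1 stood apart as the library nearest to control. Its median absolute log2 difference from the control mean was 0.171, against 0.256 in replicate 2 and 0.385 in replicate 3, and a control library compared with the mean of the other 2 gave 0.0861 to 0.109. In replicate 1, 238 members were over 2-fold above the control mean, in replicate 2 448 and in replicate 3 732. Members over 2-fold below it numbered 224, 411 and 1115. The rank correlation of replicate 1 with the control libraries (Spearman's rho 0.967 to 0.971 over 13069 genes of 2 libraries) was above that with replicate 3 (0.912). Summed FPKM of 7 erythroid genes was 490.1 in replicate 1, against 3460 and 3877 in replicates 2 and 3 and 3233 to 4193 in control. Values are therefore given for each library.

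**Figure D1:**
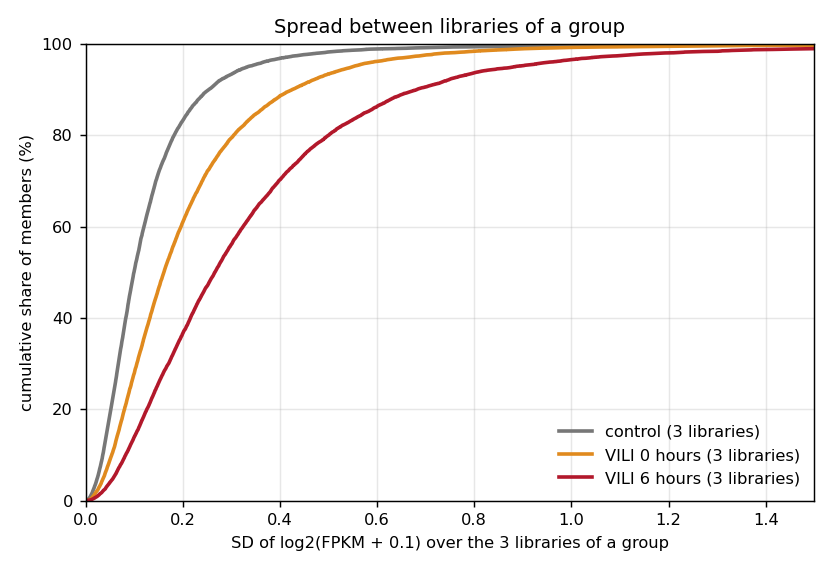
Cumulative share of the 13069 members (y axis, percent) by the SD of log2(FPKM + 0.1) over the 3 libraries of a group (x axis), with 1 line for each group. The VILI 6 hours line lies to the right of the others, with a median of 0.266 against 0.0996 in control.

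In total 1186 members were higher (9.07% of members) and 1675 lower (12.8%) 6 hours after ventilation than in control at an unadjusted P under 0.05, the threshold used in the study. Below, "rose" and "fell" are said of genes that passed this threshold, errors after ± are SE of the fit (n = 3 for each group), and adjusted p are from limma. Counts over the gene lists are to be read beside these shares of 9.07% and 12.8%, and some lie near them. After Benjamini-Hochberg adjustment over the 19378 genes tested, 118 members passed (0.903%), 71 of them higher (0.543%) and 47 lower (0.360%). The rises were the larger changes. Of the members called higher, 309 (26.1%) rose at least 2-fold and 29 at least 8-fold, and of those called lower, 216 (12.9%) fell at least 2-fold and 0 at least 8-fold. The median absolute log2 fold change was 0.63 for rises and 0.56 for falls. Without VILI 6 hours replicate 1, 1788 members were higher and 3856 lower, and 3506 passed the adjustment. Of the original calls, 1093 rises and 1586 falls were also made without that library. Without VILI 6 hours replicate 3, 980 were higher and 1000 lower, with 812 and 871 of the original calls among them, and 16 passed the adjustment. Without VILI 6 hours replicate 2, 23 passed it. Leaving out control replicate 1, 2 or 3, 963 to 1055 members were lower and 2, 0 and 1 passed. The number that passed the adjustment thus rests on each of the 6 libraries.

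The split between rises and falls depends on the scale. The median log2 fold change over all members was -0.08, and centring each library on its median shifted it by 0.127. On that scale 1777 members were higher and 1095 lower, so that 61.9% of calls were rises instead of 41.5%. Changes of under 0.13 on the log2 scale therefore have no settled direction, and the genes named below changed by more. Calls also varied with the level of the gene. Among 2054 members at 1 to 3 FPKM 6.52% rose and 13.8% fell, and among 1718 members at 30 to 100 FPKM 15.9% rose and 11.2% fell. The median SD over the VILI 6 hours libraries was 0.44 and 0.20 in these classes.

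The size of a change in a gene of low level depends on the pseudocount. With 1 FPKM in place of 0.1, the log2 fold change was 3.54 instead of 5.90 for Cxcl2, 2.08 instead of 4.32 for Tarm1, 2.07 instead of 3.70 for Adamts4, 1.66 instead of 2.70 for Mefv, 1.38 instead of 2.48 for Osm and -1.43 instead of -2.51 for Shisa2, and each was still called. Cxcl3 at 1.67 and Il6 at 1.75 were then not called.

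**Figure D2:**
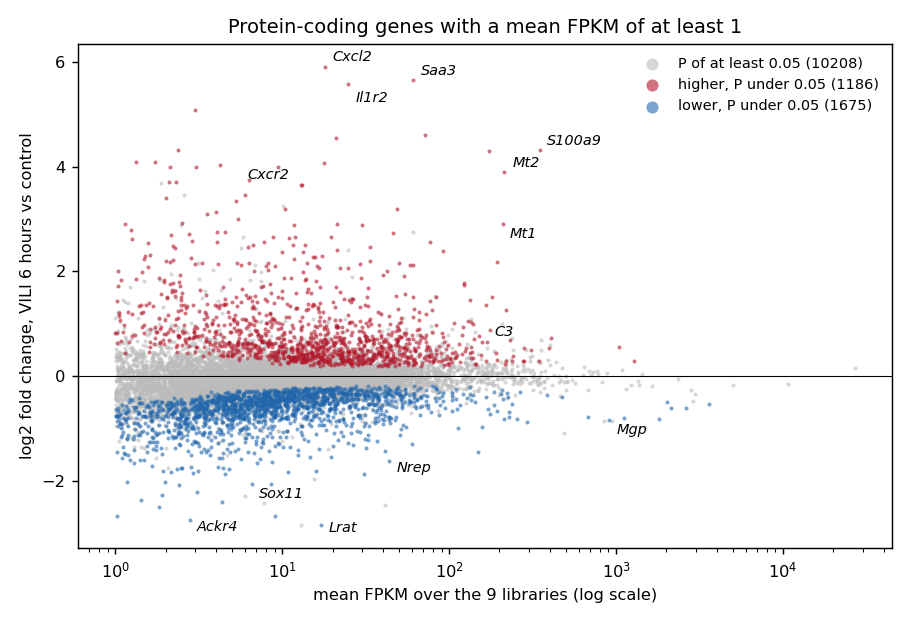
Log2 fold change of VILI 6 hours over control (y axis) against the mean FPKM over the 9 libraries (x axis, log scale) for the 13069 members, with 1186 called higher in red, 1675 called lower in blue and the rest in grey. The largest rises, such as Cxcl2 at 5.90 and Saa3 at 5.65, exceed the largest fall, Lrat at -2.85.

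Genes of neutrophils, the first leukocytes to enter an injured lung, had the highest median log2 fold change of the lists. Of 18 neutrophil genes tested, 17 rose and 0 fell, 11 of them at an adjusted p under 0.05, with a median log2 fold change of 3.33. The list median was 2.46, 3.25 and 4.24 above control in replicates 1, 2 and 3, so the order of the libraries was that of the whole data set, but replicate 1 was also far above control. Summed FPKM of the 18 genes was 78.7 to 87.3 in control and 565.1, 1147 and 2326 in VILI 6 hours. S100a8 and S100a9, which form the calcium-binding protein calprotectin of neutrophils and lie side by side on chromosome 3 (chr3:90668978-90670035 and chr3:90692632-90695721, GRCm38), were the most abundant genes of the list. S100a8 was at 15.01, 9.94 and 12.5 FPKM in the control libraries and 136, 199 and 545 FPKM at 6 hours (log2 fold change 4.30 ± 0.44, adjusted p = 0.0136). S100a9 was at 26.6, 23.4 and 29.3 FPKM and 238, 554 and 1099.9 FPKM (log2 fold change 4.31 ± 0.46, adjusted p = 0.0136). No VILI 6 hours library overlapped the controls for either gene.

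Cxcr2, the receptor through which neutrophils follow CXC chemokines, was at 1.53, 1.33 and 1.24 FPKM in control and 11.6, 19.8 and 26.99 FPKM at 6 hours (log2 fold change 3.66 ± 0.34, adjusted p = 0.00959). The secreted proteases of neutrophil granules rose with it. Mmp8 was at 0.807, 0.894 and 1.29 FPKM against 7.56, 39.2 and 52.96 FPKM at 6 hours (log2 fold change 4.55 ± 0.74, adjusted p = 0.0311), and Mmp9 at 2.73, 2.06 and 2.21 FPKM against 13.8, 16.4 and 24.9 FPKM at 6 hours (2.89 ± 0.27, adjusted p = 0.00959). Il1r2, the decoy receptor that binds interleukin-1 without signalling, was at 0.261, 0.451 and 0.465 FPKM in control and 2.97, 42.9 and 93.03 FPKM at 6 hours (log2 fold change 5.58 ± 1.10, adjusted p = 0.0587). Its spread was wide, but the lowest VILI 6 hours library was still above the highest control. Retnlg, a resistin-like protein of neutrophils, was at 23.1, 139 and 157 FPKM against 2.696, 3.79 and 3.17 in control (4.60 ± 0.62, adjusted p = 0.0217). Ly6g, the surface antigen by which mouse neutrophils are identified, was listed at 0 in 2 of 3 controls (0, 0.0532 and 0 FPKM) and was at 0.436, 2.85 and 4.61 FPKM at 6 hours.

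Markers of immature neutrophils were less even. Ngp, a granule protein made in the bone marrow, was at 0.568, 1.14 and 0.494 FPKM in control and 0.677, 24.7 and 118 FPKM at 6 hours, so that replicate 1 overlapped the controls and replicate 3 was far above them (log2 fold change 4.06 ± 1.42, adjusted p = 0.17, 6.10 without VILI 6 hours replicate 1, 3.60 and 2.48 and not called without VILI 6 hours replicates 2 and 3). Camp, the cathelicidin precursor of the same granules, was at 0, 0.5496 and 0.161 FPKM against 0.105, 1.82 and 17.1 FPKM at 6 hours and was the neutrophil gene that did not pass the test. Ltf, the lactoferrin of those granules, was at 8.41, 3.57 and 5.33 FPKM against 27.2, 14.3 and 50.1 FPKM at 6 hours and rose (log2 fold change 2.29 ± 0.56, adjusted p = 0.0908).

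Among further genes with large rises, Acod1, which makes itaconate in activated macrophages and neutrophils, was listed at 0 in 2 of 3 controls and was at 1.08, 2.82 and 15.6 FPKM at 6 hours, which gives no firm fold. Clec4e, a receptor for mycobacterial lipids and dead cells, rose from 0.707, 0.5596 and 0.8996 to 5.82, 7.58 and 15.6 FPKM (3.46 ± 0.49, adjusted p = 0.0248). Mefv, the pyrin inflammasome sensor, rose from 0.373, 0.568 and 0.522 to 3.14, 3.22 and 4.902 FPKM (2.70 ± 0.29, adjusted p = 0.014). Tarm1, an activating receptor of myeloid cells, rose with a log2 fold change of 4.32 ± 0.65 (adjusted p = 0.0271). Stfa2l1 (3.74 ± 0.46) and Gm5483 (4.03 ± 0.51), stefin A protease inhibitors on chromosome 16, and Mrgpra2b (4.10 ± 0.61) rose too, but each has near-identical copies in the genome, so the split of fragments among the copies is uncertain. The gene with the smallest P of all was H2-Q10, a class I histocompatibility gene, at 0.669, 0.563 and 0.703 FPKM in control and 5.27, 4.19 and 5.33 FPKM at 6 hours (log2 fold change 2.75 ± 0.21, adjusted p = 0.00459), and it too belongs to a family of like genes.

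**Figure D3:**
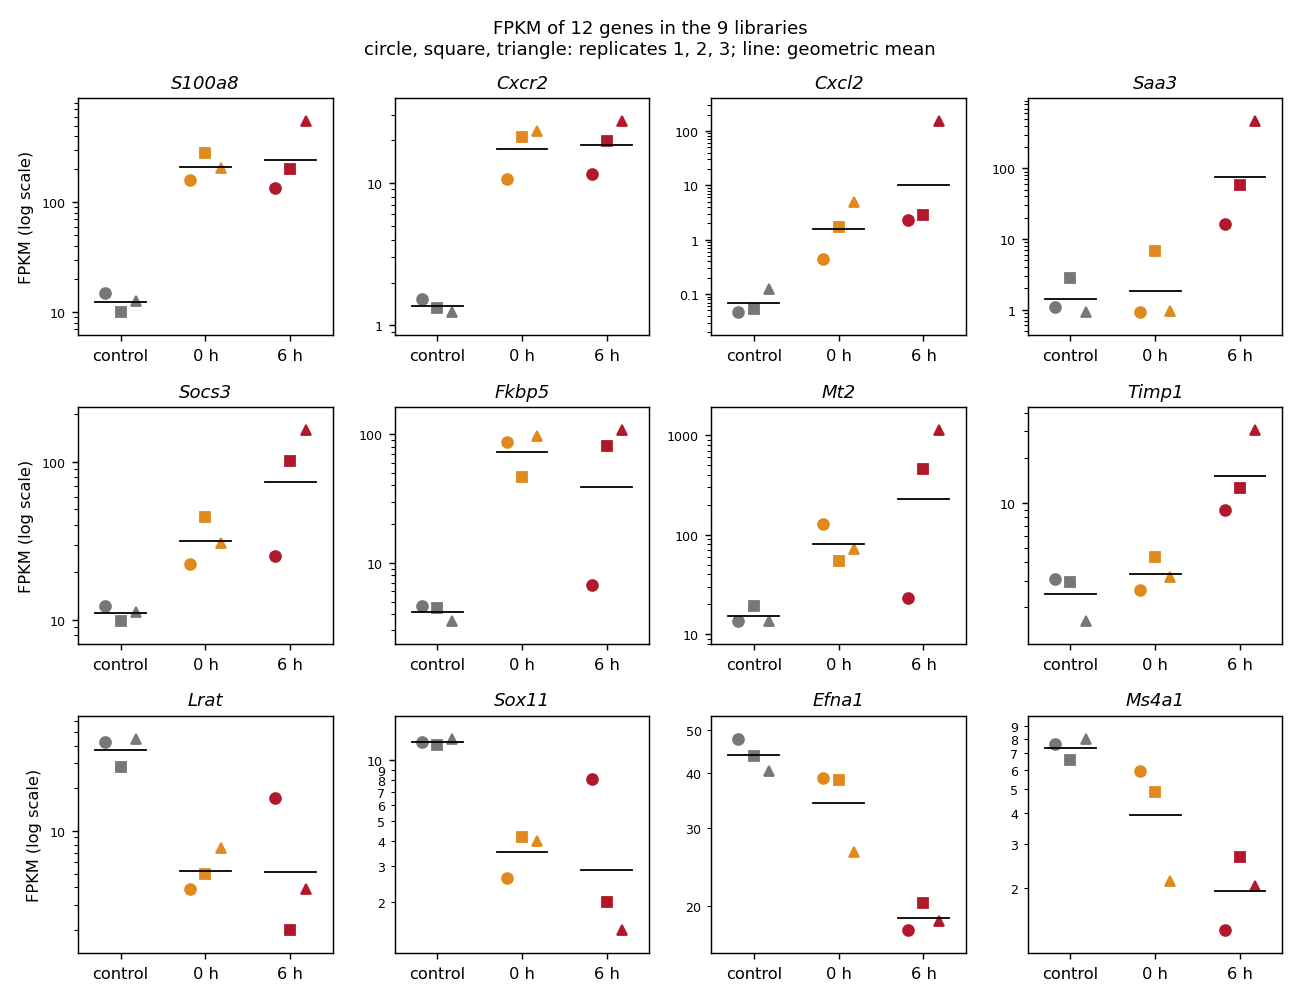
FPKM (y axes, log scale) of 12 genes in the 9 libraries, grouped as control and the 2 VILI times, with circles, squares and triangles for replicates 1, 2 and 3 and a line at the geometric mean of each group. Replicate 1 of VILI 6 hours lies with the controls for Fkbp5 but well above them for S100a8 and Cxcr2, and the 3 libraries lie close together for Efna1.

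Chemokines were uneven between the 3 libraries. Of 13 CXC chemokines tested, 2 rose and 2 fell, with list medians of 0.03, 0.38 and 2.24 above control in replicates 1, 2 and 3. In all 7 rose without VILI 6 hours replicate 1, and 1 without control replicate 3. Cxcl2, a ligand of Cxcr2, had the largest rise of all members at the pseudocount of 0.1, but with 1 FPKM Saa3 (4.98), S100a9 (4.27) and S100a8 (4.21) rose by more than Cxcl2 (3.54). It was at 0.0463, 0.0538 and 0.122 FPKM in control and 2.303, 2.88 and 150.1 FPKM at 6 hours (log2 fold change 5.90 ± 1.41, adjusted p = 0.0878), a difference carried in size by replicate 3, although the other 2 libraries were also above every control. Cxcl3, a further ligand, was at 0, 0.299 and 0.0402 FPKM against 1.07, 0.265 and 15.6 FPKM at 6 hours (log2 fold change 3.41 ± 1.21, adjusted p = 0.173, 1.88 without VILI 6 hours replicate 3, 3.00 and 3.24 and not called without control replicates 1 and 3), with replicate 2 inside the control range. Cxcl1 (0.762, 3.49 and 44.4 FPKM against 0.643, 0.769 and 0.749), Cxcl5 (7.203, 0.3398 and 38.2 against 0.395, 2.19 and 0.581) and Cxcl10 (0.564, 2.15 and 59.3 against 1.39, 0.9399 and 1.201), the last a ligand of T cells, did not pass the test and were highest in replicate 3. The chemokines that fell are made by stroma and epithelium. Cxcl12, which retains leukocytes and progenitors, was at 59.2, 53.8 and 62.8 FPKM in control and 40.7, 31.995 and 23.6 FPKM at 6 hours (log2 fold change -0.90 ± 0.24, adjusted p = 0.109). Cxcl14 was at 80.7, 90.7 and 67.3 FPKM against 28.7, 43.96 and 55.01 FPKM at 6 hours (log2 fold change -0.94 ± 0.27, adjusted p = 0.122).

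The promoter of Cxcl2 (GRCm38.p6 from RefSeq, plus strand, chr5:90903649-90903948, from 250 bases before to 50 after the start) is shown because the gene has the largest rise at that pseudocount and holds 2 copies of the letters GGNNTTTCC, a form of the NF-kappaB motif, given in capitals. That of Nfkbia (minus strand, chr12:55492598-55492897), the inhibitor that NF-kappaB itself induces, holds 2 as well, 1 of them on the opposite strand.
Cxcl2: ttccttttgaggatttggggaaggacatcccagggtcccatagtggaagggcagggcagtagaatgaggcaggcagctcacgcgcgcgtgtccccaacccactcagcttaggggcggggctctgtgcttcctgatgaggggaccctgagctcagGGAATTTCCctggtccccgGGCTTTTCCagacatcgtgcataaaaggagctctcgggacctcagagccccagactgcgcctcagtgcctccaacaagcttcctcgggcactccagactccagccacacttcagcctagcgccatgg
Nfkbia: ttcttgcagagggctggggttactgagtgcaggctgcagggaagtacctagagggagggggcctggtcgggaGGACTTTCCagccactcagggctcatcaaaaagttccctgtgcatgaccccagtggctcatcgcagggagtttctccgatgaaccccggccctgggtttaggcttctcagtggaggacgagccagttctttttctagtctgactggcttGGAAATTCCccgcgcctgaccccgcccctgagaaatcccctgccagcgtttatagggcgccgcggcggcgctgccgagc
Searched on both strands of such windows, GGNNTTTCC was found in 5.82% of 32851 promoters of the reference, in 6.13% of 13043 promoters of the members, in 7.85% of 1197 promoters of members called higher and in 5.86% of 1620 promoters of members called lower. Of the 100 largest rises 82 genes were matched, some with more than 1 promoter, and the letters were in 16.5% of their 97 promoters. Promoters were matched for 10222 of the 13069 members. The AP-1 motif TGANTCA, which was searched too, was in 7.81% of the promoters of the reference and in 5.32%, 8.77%, 5.31% and 11.3% of those of all members, of those higher, of those lower and of the 100 largest rises. The STAT motif TTCNNNGAA was in 8.30% of the promoters of the reference and in 6.98%, 8.35%, 7.90% and 15.5%. Matches of different motifs can overlap and were counted for each motif. These shares describe letters in a window and not binding.

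CC chemokines, which attract monocytes and macrophages, rose in 5 of 14 tested (3 without control replicate 1), and 0 fell (3 without VILI 6 hours replicate 3). Ccl2, the main attractant of monocytes, was at 0.895, 0.797 and 0.609 FPKM in control and 2.35, 5.27 and 13.6 FPKM at 6 hours (log2 fold change 2.72 ± 0.60, adjusted p = 0.0733). Ccl9 was at 3.14, 2.63 and 2.75 FPKM against 9.67, 9.43 and 24.4 FPKM at 6 hours (log2 fold change 2.17 ± 0.35, adjusted p = 0.0311). Ccl7, another ligand of the Ccl2 receptor, was at 0.924, 0.871 and 0.382 FPKM against 1.06, 3.89 and 9.89 FPKM at 6 hours (log2 fold change 2.20 ± 0.89, adjusted p = 0.213). The call of Ccl7 was lost without each of 5 libraries (2.12 and 1.46 and not called without VILI 6 hours replicates 2 and 3, 2.39, 2.35 and 1.85 and not called without control replicates 1, 2 and 3). Ccl17, which attracts T helper cells, rose by 1.20 ± 0.48 mainly in replicate 3 (7.03, 6.84 and 30.5 FPKM against 5.14, 4.396 and 5.199). Its log2 fold changes with 1 library left out were 0.49 without VILI 6 hours replicate 3, 1.23, 1.12 and 1.24 and not called without control replicates 1, 2 and 3. Ccl6, made by macrophages and neutrophils, rose from 45.8, 53.1 and 56.1 to 94.9, 63.98 and 74.7 FPKM (0.58 ± 0.17). Of 9 monocyte genes 4 rose (7 on the median-centred scale) and 0 fell, with a median of 1.02, among them Vcan (1.71 ± 0.40), Ly6c2 (1.33 ± 0.36) and F13a1 (1.70 ± 0.50).

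Of 18 cytokines tested, 14 of them members, 6 rose and 1 fell, but 9 rose without VILI 6 hours replicate 2 and 2 without control replicate 3. Il1b, the interleukin-1 made by neutrophils and macrophages, was at 3.27, 4.48 and 4.95 FPKM in control and 26.4, 13.996 and 83.4 FPKM at 6 hours (log2 fold change 2.88 ± 0.64, adjusted p = 0.0733). Osm, a cytokine of the interleukin-6 family made by neutrophils, was at 0.316, 0.359 and 0.329 FPKM against 1.18, 1.65 and 6.19 FPKM at 6 hours (log2 fold change 2.48 ± 0.67, adjusted p = 0.111). Both genes were above control in every VILI 6 hours library. Il6 itself was at 0.232, 0.277 and 0.138 FPKM in control and 0.306, 1.58 and 19.3 FPKM at 6 hours (log2 fold change 2.93 ± 1.12, adjusted p = 0.194, 1.41 and not called without VILI 6 hours replicate 3, 2.98 and 2.74 and not called without control replicates 1 and 3). Csf3, the growth factor of neutrophils, was listed at 0 in all 3 controls and at 0, 1.17 and 17.7 FPKM at 6 hours, so that it was at 0 in replicate 1 as well. Tnf was at 0.9601, 0.829 and 0.522 FPKM in control and 1.79, 0.425 and 13.6 FPKM at 6 hours and did not pass the test. Interleukin-6, Csf3, Tnf and Cxcl10 were each highest in replicate 3.

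Among the receptors of cytokines most genes rose. Of 20 tested, 15 rose and 1 fell, Csf3r and Il1r2 of the neutrophil list being among the 15, with list medians of 0.42, 0.71 and 0.97 above control in replicates 1, 2 and 3. Several are receptors of leukocytes. Csf3r, the receptor of Csf3, was at 7.47, 7.09 and 6.29 FPKM in control and 36.8, 24.7 and 27.9 FPKM at 6 hours (log2 fold change 2.07 ± 0.28, adjusted p = 0.0217), and was highest in replicate 1. Csf2rb, the shared subunit of the receptors of interleukin-3, interleukin-5 and GM-CSF, rose from 8.09, 7.32 and 7.36 to 15.05, 17.6 and 24.5 FPKM (log2 fold change 1.29 ± 0.25, adjusted p = 0.0587). Il17ra, found on epithelium and leukocytes, rose from 7.097, 6.02 and 5.88 to 10.9, 12.9 and 15.2 FPKM (log2 fold change 1.02 ± 0.18, adjusted p = 0.0432). Il4ra, the receptor of interleukin-4 and interleukin-13, was at 24.5, 25.8 and 22.6 FPKM against 32.02, 101 and 105 FPKM at 6 hours (log2 fold change 1.52 ± 0.38, adjusted p = 0.0962), with replicate 1 close to the controls. Lifr, the receptor of leukaemia inhibitory factor, was the one that fell, from 47.3, 46.99 and 56.04 to 33.98, 39.5 and 33.9 FPKM (log2 fold change -0.48 ± 0.12, adjusted p = 0.0874). Osmr, the receptor chain of oncostatin M, rose to 20.5, 42.9 and 56.4 FPKM from 18.3, 18.2 and 17.5 (log2 fold change 1.03 ± 0.30, adjusted p = 0.123).

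Of 18 NF-kappaB factors and feedback inhibitors, 8 rose and 0 fell (4 rose without VILI 6 hours replicate 3, and 3 when control replicate 3 was left out). The list median was 0.20, 0.30 and 1.49 above control in replicates 1, 2 and 3. Nfkbia was at 44.7, 44.5 and 46.5 FPKM in control and 52.5, 185 and 360.4 FPKM at 6 hours (log2 fold change 1.74 ± 0.54, adjusted p = 0.139), 1.16 times the control mean in replicate 1 and 7.96 times in replicate 3. Its log2 fold change was 1.12 without VILI 6 hours replicate 3. Bcl3, an atypical inhibitor that acts in the nucleus, rose from 6.11, 9.24 and 6.88 to 13.6, 29.8 and 43.1 FPKM (log2 fold change 1.82 ± 0.38, adjusted p = 0.0656). Zc3h12a, the nuclease that degrades messengers of cytokines, was at 5.54, 5.797 and 4.89 FPKM against 7.48, 11.5 and 51.2 FPKM at 6 hours (log2 fold change 1.59 ± 0.56, adjusted p = 0.171, 0.77 without VILI 6 hours replicate 3). The subunit Relb rose by 1.01 ± 0.35, and was at 0.66 and not called without VILI 6 hours replicate 3, 0.78 and not called without control replicate 3. In the JAK, STAT and SOCS genes 4 of 19 rose and 1 fell, and 7 rose and 4 fell without VILI 6 hours replicate 1. Socs3 was at 12.2, 9.82 and 11.3 FPKM in control and 25.5, 101 and 159 FPKM at 6 hours (log2 fold change 2.74 ± 0.56, adjusted p = 0.0625). Stat3 rose from 30.6, 29.3 and 28.96 to 36.5, 55.3 and 60.1 FPKM (log2 fold change 0.74 ± 0.17, adjusted p = 0.0733). Cish (0.91 ± 0.26) and Jak3 (0.45 ± 0.13) also rose. In the most abundant row alone the log2 fold change was 4.68 for Relb and 0.38 for Cish.

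Acute-phase proteins formed the second of the lists by median log2 fold change, at 1.80. Of 19 tested, 14 rose and 0 fell (9 rose without control replicate 1). The list median was 0.61, 1.23 and 3.41 above control in replicates 1, 2 and 3. Saa3, the serum amyloid A made in the lung by macrophages and epithelium, was at 1.08, 2.83 and 0.922 FPKM in control and 16.5, 58.3 and 460.3 FPKM at 6 hours (log2 fold change 5.65 ± 1.14, adjusted p = 0.0614). Each VILI 6 hours library was above every control, and replicate 3 was 28.0 times replicate 1. Lcn2, which starves bacteria of iron, was at 55.4, 80.2 and 58.8 FPKM against 152, 182 and 881 FPKM at 6 hours (log2 fold change 2.18 ± 0.55, adjusted p = 0.0978, 1.38 without VILI 6 hours replicate 3). Lrg1, a glycoprotein made by endothelium and neutrophils, rose from 14.8, 21.2 and 16.9 to 45.6, 78.4 and 135 FPKM (log2 fold change 2.16 ± 0.35, adjusted p = 0.031). C3, the central complement component, rose from 142, 144 and 127 to 229.6, 198 and 224 FPKM (log2 fold change 0.66 ± 0.10, adjusted p = 0.0274), the smallest change of the acute-phase genes named here. The protease inhibitors of the Serpina3 family are near-identical copies in mouse. Serpina3n was at 19.9, 20.5 and 15.6 FPKM against 29.2, 149 and 306 FPKM at 6 hours (log2 fold change 2.57 ± 0.67, adjusted p = 0.103) and Serpina3m at 0.616, 0.578 and 0.5903 FPKM against 1.21, 23.8 and 42.9 FPKM at 6 hours (log2 fold change 3.99 ± 1.05, adjusted p = 0.105). Saa2 was listed at 0 in 2 controls and in VILI 6 hours replicate 1, with 0, 4.97 and 13.9 FPKM in the 3 libraries, and shares near-identical sequence with Saa1.

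The promoter of Saa3 (GRCm38.p6 from RefSeq, minus strand, chr7:46715627-46715926) is shown because Saa3 has the largest rise of the acute-phase genes and holds the letters TTNNGCAA, a form of the motif of C/EBP factors, given in capitals.
Saa3: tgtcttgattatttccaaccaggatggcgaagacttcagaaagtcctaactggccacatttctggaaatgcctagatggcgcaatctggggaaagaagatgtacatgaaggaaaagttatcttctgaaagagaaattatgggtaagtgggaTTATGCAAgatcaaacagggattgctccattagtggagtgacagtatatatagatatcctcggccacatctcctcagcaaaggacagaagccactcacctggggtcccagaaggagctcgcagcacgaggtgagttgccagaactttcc
TTNNGCAA was found on either strand in 10.8% of all promoters, 8.63% of those of members, 10.9% of those called higher, 9.75% of those called lower and 20.6% of those of the 100 largest rises. Cebpd, a C/EBP factor of the acute phase, was at 8.895, 9.96 and 14.7 FPKM in control and 14.9, 63.5 and 89.7 FPKM at 6 hours (log2 fold change 1.998 ± 0.58, adjusted p = 0.124). Of 25 immediate early and C/EBP factors 11 rose and 0 fell, among them the AP-1 subunits Fosl2 (1.69 ± 0.44) and Junb (1.58 ± 0.37).

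Glucocorticoid targets separated replicate 1 from the other 2 libraries. The list median was -0.18 in replicate 1 and 2.79 and 2.74 in replicates 2 and 3. Of 12 tested, 6 rose and 0 fell, but 12 rose without replicate 1 and 1 without replicate 3. Fkbp5, the chaperone partner of the glucocorticoid receptor and among its most responsive targets, was at 4.62, 4.43 and 3.53 FPKM in control and 6.73, 81.6 and 107 FPKM at 6 hours (log2 fold change 3.20 ± 0.86, adjusted p = 0.109). Ddit4, an inhibitor of mTOR, was at 6.75, 6.47 and 6.53 FPKM against 7.695, 53.4 and 68.9 FPKM at 6 hours (log2 fold change 2.20 ± 0.75, adjusted p = 0.165, 1.80 and 1.61 and not called without VILI 6 hours replicates 2 and 3). Pdk4, which turns the cell from glucose to fat as fuel, was at 1.99, 2.03 and 2.499 FPKM against 2.24, 19.2 and 22.6 FPKM at 6 hours (log2 fold change 2.16 ± 0.73, adjusted p = 0.161, 1.69 and 1.57 and not called without VILI 6 hours replicates 2 and 3). Hif3a was at 0.975, 1.12 and 0.933 FPKM against 0.809, 12.8 and 9.54 FPKM at 6 hours, and its call was lost without each of 5 libraries (log2 fold change 2.13 ± 0.82, adjusted p = 0.196, 3.33 without VILI 6 hours replicate 1, 1.42 and 1.63 and not called without VILI 6 hours replicates 2 and 3, 2.11, 2.20 and 2.08 and not called without control replicates 1, 2 and 3). In each of these 4 genes replicate 1 was at 0.802 to 1.61 times the mean of the controls, while replicates 2 and 3 were at 8.11 to 25.6 times that mean.

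The metallothioneins Mt1 and Mt2, which bind zinc and are induced by metals, glucocorticoids and cytokines, followed the same pattern. Mt1 was at 33.99, 35.4 and 33.3 FPKM in control and 39.3, 463 and 929.6 FPKM at 6 hours (log2 fold change 2.90 ± 0.92, adjusted p = 0.143). Mt2 was at 13.6, 19.1 and 13.6 FPKM against 22.9, 455 and 1126 FPKM at 6 hours (log2 fold change 3.89 ± 1.14, adjusted p = 0.124). They are neighbours on chromosome 8 (chr8:94172664-94173568 and chr8:94179082-94180327, GRCm38). Slc39a14, the zinc importer of the acute phase, was at 5.08, 4.12 and 4.43 FPKM against 5.91, 19.3 and 42.02 FPKM at 6 hours (log2 fold change 1.88 ± 0.56, adjusted p = 0.131, 1.22 without VILI 6 hours replicate 3). The cell cycle inhibitor Cdkn1a, a target of p53 and of stress signals, was at 14.2, 19.03 and 15.6 FPKM against 22.4, 133 and 202 FPKM at 6 hours (log2 fold change 2.38 ± 0.79, adjusted p = 0.156, 2.05 and 1.75 and not called without VILI 6 hours replicates 2 and 3), again lowest in replicate 1. Of 16 p53 targets 6 rose and 2 fell, and 3 rose without VILI 6 hours replicate 2.

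The lists of NRF2 antioxidant targets and of hypoxia and glycolysis had medians of 0.56 and 0.35. Gsr, glutathione reductase, was at 23.2, 24.7 and 22.1 FPKM in control and 46.2, 47.9 and 67.8 FPKM at 6 hours (log2 fold change 1.19 ± 0.14, adjusted p = 0.0216). Of 13 NRF2 targets 6 rose and 0 fell, including Hmox1, haem oxygenase, at 12.8, 14.8 and 12.4 FPKM against 19.1, 16.8 and 32.7 FPKM at 6 hours (log2 fold change 0.72 ± 0.23, adjusted p = 0.149, 0.43 without VILI 6 hours replicate 3). Of 22 genes of hypoxia and glycolysis 13 rose and 0 fell. Adm, the vasodilator adrenomedullin, rose from 3.87, 2.74 and 2.59 to 6.87, 12.6 and 26.97 FPKM (log2 fold change 2.102 ± 0.42, adjusted p = 0.0596), and Hk2, the inducible hexokinase, rose from 4.75, 4.29 and 4.63 to 7.22, 11.8 and 25.2 FPKM (log2 fold change 1.48 ± 0.38, adjusted p = 0.101). The small heat-shock protein Hspb1 was at 41.2, 43.3 and 48.9 FPKM against 108, 109 and 177 FPKM at 6 hours (log2 fold change 1.52 ± 0.20, adjusted p = 0.0217), whereas of 13 chaperones tested 2 rose and 0 fell, with a list median of 0.08. Without VILI 6 hours replicate 1, 4 chaperones fell and the list median was -0.20. Alox5ap, which presents arachidonic acid to 5-lipoxygenase for leukotriene synthesis, rose from 14.4, 12.6 and 13.1 to 32.2, 33.1 and 48.5 FPKM (log2 fold change 1.47 ± 0.20, adjusted p = 0.0217). Atp1b1, a subunit of the sodium pump that drives fluid out of the alveolus, rose by 0.87 ± 0.27 (adjusted p = 0.135).

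Of 14 leukocyte adhesion molecules 8 rose and 0 fell (5 rose without control replicate 2). Selp, the P-selectin on which leukocytes roll, was at 1.19, 0.896 and 1.201 FPKM in control and 1.72, 4.22 and 8.65 FPKM at 6 hours (log2 fold change 1.79 ± 0.46, adjusted p = 0.102). Sele, the E-selectin of activated endothelium, was at 0.184, 0.348 and 0.265 FPKM against 0.374, 1.13 and 3.72 FPKM at 6 hours (log2 fold change 1.86 ± 0.64, adjusted p = 0.166, 1.09 without VILI 6 hours replicate 3, 1.69 and not called without control replicate 1). Selplg, their ligand on leukocytes, rose from 16.8, 14.5 and 13.3 to 25.6, 26.7 and 39.7 FPKM (log2 fold change 1.02 ± 0.17, adjusted p = 0.0389). Of 16 genes of coagulation and fibrinolysis 7 rose and 0 fell (2 without VILI 6 hours replicate 1), among them Plat, tissue plasminogen activator, at 12.01, 11.4 and 11.7 FPKM against 14.8, 63.3 and 85.7 FPKM at 6 hours (log2 fold change 1.88 ± 0.53, adjusted p = 0.119), and Thbs1, thrombospondin, at 32.95, 33.8 and 27.3 FPKM against 49.5, 83.3 and 108 FPKM at 6 hours (log2 fold change 1.28 ± 0.32, adjusted p = 0.0912). Of 17 TIMPs and matrix proteases 7 rose and 0 fell, and 2 of the 7, Mmp8 and Mmp9, are also in the neutrophil list. Timp1, the inducible inhibitor of matrix metalloproteinases, was at 3.08, 2.97 and 1.62 FPKM against 8.904, 12.5 and 30.5 FPKM at 6 hours (log2 fold change 2.56 ± 0.43, adjusted p = 0.0353). Adamts4, an aggrecanase, was at 0.155, 0.192 and 0.138 FPKM against 0.649, 3.28 and 15.3 FPKM at 6 hours (log2 fold change 3.70 ± 0.87, adjusted p = 0.0823). Lox, which crosslinks collagen, was at 13.4, 20.04 and 17.2 FPKM against 19.4, 129 and 156 FPKM at 6 hours (log2 fold change 2.13 ± 0.66, adjusted p = 0.139), with replicate 1 inside the control range.

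The falls were smaller and their largest members were expressed at low to middle levels. Lrat, which stores vitamin A as retinyl ester, fell the most, from 42.5, 28.1 and 44.5 FPKM in control to 17.1, 1.999 and 3.88 FPKM at 6 hours (log2 fold change -2.85 ± 0.63, adjusted p = 0.0733). Ackr4, a scavenger of CC chemokines, was at 5.65, 5.48 and 6.58 FPKM against 2.82, 0.645 and 0.223 FPKM at 6 hours (log2 fold change -2.75 ± 0.65, adjusted p = 0.0853), and the transcription factor Sox11 at 12.3, 11.9 and 12.7 FPKM against 8.05, 2.004 and 1.46 FPKM at 6 hours (log2 fold change -2.05 ± 0.51, adjusted p = 0.0942). Shisa2, which inhibits FGF and Wnt receptors, was at 3.75, 3.998 and 3.53 FPKM against 2.48, 0.314 and 0.192 FPKM at 6 hours (log2 fold change -2.51 ± 0.67, adjusted p = 0.11). In Lrat, Ackr4, Sox11 and Shisa2 replicate 1 lay between the controls and the other 2 libraries. Other genes were below control to a like extent in all 3 libraries. Nrep, a neuronal regeneration protein also found in fibroblasts and smooth muscle, fell from 76.7, 81.6 and 70.8 to 30.4, 23.6 and 20.7 FPKM (log2 fold change -1.63 ± 0.17, adjusted p = 0.0136). Efna1, the ephrin ligand induced in endothelium by TNF, fell from 47.6, 43.7 and 40.4 to 17.7, 20.3 and 18.5 FPKM (log2 fold change -1.22 ± 0.15, adjusted p = 0.0216). Hepacam2, an adhesion protein of the immunoglobulin family, fell from 2.06, 2.19 and 2.27 to 0.627, 0.777 and 0.569 FPKM (log2 fold change -1.59 ± 0.19, adjusted p = 0.0216), and Ecm2, a matrix protein, from 12.3, 11.9 and 13.03 to 6.698, 7.32 and 7.12 FPKM (log2 fold change -0.81 ± 0.10, adjusted p = 0.0216). Nkain1 (-2.68 ± 0.63), Gkn3 (-2.26 ± 0.53), Nat8f3 (-2.08 ± 0.62) and BC028528 (-0.59 ± 0.07) also fell.

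Zinc-finger genes of 1 cluster on chromosome 2 made up 5 of the 12 largest falls among genes whose groups did not overlap, namely Zfp973 (-2.41 ± 1.05), Gm14440 (-2.37 ± 0.75), Gm14418 (-2.21 ± 0.44), Gm14403 (-2.07 ± 0.32) and Gm14419 (-2.02 ± 0.31). Zfp973 was not called under 6 of the alternatives in which no library was left out. The log2 fold change of Gm14440 was -1.27 without VILI 6 hours replicate 1. That of Zfp973 was -1.42 and not called without VILI 6 hours replicate 2, -2.46, -2.38 and -2.40 and not called without control replicates 1, 2 and 3. Gm14326 of the same cluster fell from 12.3, 13.8 and 15.1 to 6.42, 4.997 and 4.77 FPKM (log2 fold change -1.34 ± 0.16, adjusted p = 0.0216). Of the 26 members from the first to the last of these 6 genes (chr2:175275125-177957297, GRCm38), a window chosen after the values were seen, 21 fell and 0 rose, with a median log2 fold change of -1.32 (range -2.41 to -0.32), and 9 passed the adjustment. The genes of this cluster are near-identical KRAB zinc-finger repressors. Fragments can be split among them in more than 1 way, so the counts are not of independent genes.

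Among the most abundant genes (mean of at least 100 FPKM) the 5 largest falls were those of Mgp, Fmo1, Scn7a, Calcrl and Rps27a. Mgp, the matrix Gla protein that inhibits calcification, fell from 1239.8, 1318 and 1117 to 673, 707 and 680.4 FPKM (log2 fold change -0.83 ± 0.14, adjusted p = 0.0389). Fmo1, a flavin monooxygenase, fell from 190.1, 192 and 209 to 126, 99.1 and 79.9 FPKM (log2 fold change -0.98 ± 0.15, adjusted p = 0.0274). Scn7a, a sodium channel subunit, fell from 133, 148 and 160.5 to 76.5, 83.6 and 63.7 FPKM (log2 fold change -0.99 ± 0.18, adjusted p = 0.0436), and Calcrl, the receptor of adrenomedullin, from 342, 404 and 431 to 267, 231 and 156 FPKM (log2 fold change -0.88 ± 0.26, adjusted p = 0.125). Rps27a, a ribosomal protein fused to ubiquitin, was at 205, 212 and 186 FPKM against 53.7, 51.3 and 142 FPKM at 6 hours (log2 fold change -1.46 ± 0.48, adjusted p = 0.154, -1.20 and not called without VILI 6 hours replicate 2). In its most abundant transcript row alone the log2 fold change of Rps27a was -10.24, so the value depends on how fragments were assigned to its rows. Of the 13 protein-coding genes of the mitochondrial genome 6 fell and 0 rose, for example mt-Nd4l from 2183, 1870.1 and 2929 to 1231, 1204 and 1489 FPKM (log2 fold change -0.81 ± 0.18, adjusted p = 0.0733), with a median of -0.47. The values of mt-Nd4l varied 1.57-fold within control.

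In the lists of angiopoietin and VEGF signalling and of aerocyte markers more genes fell than rose. Over all members too more fell (12.8%) than rose (9.07%). Of 15 genes of angiopoietin and VEGF signalling 6 fell and 2 rose (0 without control replicate 2), with a median of -0.55 over the list. Angpt2, the antagonist released by endothelium, fell from 6.96, 8.16 and 9.53 to 5.37, 3.03 and 3.17 FPKM (log2 fold change -1.11 ± 0.22, adjusted p = 0.0598). Apln, the peptide ligand apelin, fell from 22.2, 21.3 and 22.5 to 14.3, 8.69 and 6.29 FPKM (log2 fold change -1.25 ± 0.25, adjusted p = 0.0596), and the receptors Tie1 (-0.58 ± 0.14) and Tek (-0.55 ± 0.12) with their ligand Angpt1 (-0.63 ± 0.16) fell by less. Of 6 markers of aerocytes, the capillary cells of gas exchange, 5 fell (3 without control replicate 1, 2 on the median-centred scale) and 0 rose, Ednrb from 42.3, 39.8 and 42.3 to 19.6, 33.3 and 25.97 FPKM (log2 fold change -0.69 ± 0.17, adjusted p = 0.0947) and Emcn from 16.5, 17.6 and 19.9 to 10.5, 13.7 and 13.3 FPKM (log2 fold change -0.53 ± 0.15, adjusted p = 0.123), which was not called on the median-centred scale. Apln is in both of these lists. Of 6 markers of general capillary cells 1 fell and 0 rose, but 2 rose without VILI 6 hours replicate 1. Cdh5, the cadherin of all endothelium, was at 245, 251 and 258 FPKM in control and 207, 332 and 317 FPKM at 6 hours and did not pass the test.

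Of 12 fibroblast genes 6 fell (4 on the median-centred scale) and 0 rose, with list medians of -0.44, -0.20 and -0.65 in replicates 1, 2 and 3. Lum, a collagen-binding proteoglycan, fell from 6.32, 7.04 and 7.84 to 3.07, 3.64 and 3.08 FPKM (log2 fold change -1.09 ± 0.19, adjusted p = 0.0389). Inmt, a methyltransferase abundant in lung fibroblasts, fell from 771, 775 and 964 to 575, 571 and 349 FPKM (log2 fold change -0.78 ± 0.20, adjusted p = 0.0967), and Col3a1, a fibrillar collagen, from 237, 251 and 203 to 152, 187 and 134 FPKM (log2 fold change -0.55 ± 0.15, adjusted p = 0.111). Of 18 matrix proteins and hyaluronan synthases 3 fell and 2 rose, the latter being Lox and Has1 (1.98 ± 0.56), but 6 rose and 2 fell without VILI 6 hours replicate 1, and 4 rose and 2 fell on the median-centred scale.

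Of 9 B cell genes 7 fell (3 without control replicate 1, 4 without VILI 6 hours replicate 1 or 3) and 0 rose, with list medians of -1.71, -0.47 and -1.39 in replicates 1, 2 and 3. Ms4a1, the B cell antigen CD20, was at 7.59, 6.56 and 7.96 FPKM in control and 1.35, 2.67 and 2.03 FPKM at 6 hours (log2 fold change -1.86 ± 0.36, adjusted p = 0.0587). Summed FPKM of the 9 genes was 61.3 to 83.0 in control and 18.8, 51.8 and 25.9 in VILI 6 hours. Of 11 T cell genes 0 rose and 0 fell, and of 9 natural killer cell genes 3 fell (9 without VILI 6 hours replicate 3) and 0 rose. The natural killer list median was -1.11, -0.91 and 0.83 in the 3 libraries, so that they differed in direction, and Klre1 (-1.37 ± 0.37), a receptor of these cells, was among those that fell. Of 20 interferon-stimulated genes 0 rose and 2 fell, with list medians of -0.50, -0.42 and 1.17, and 10 fell without replicate 3 and 3 rose without replicate 1.

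**Figure D4:**
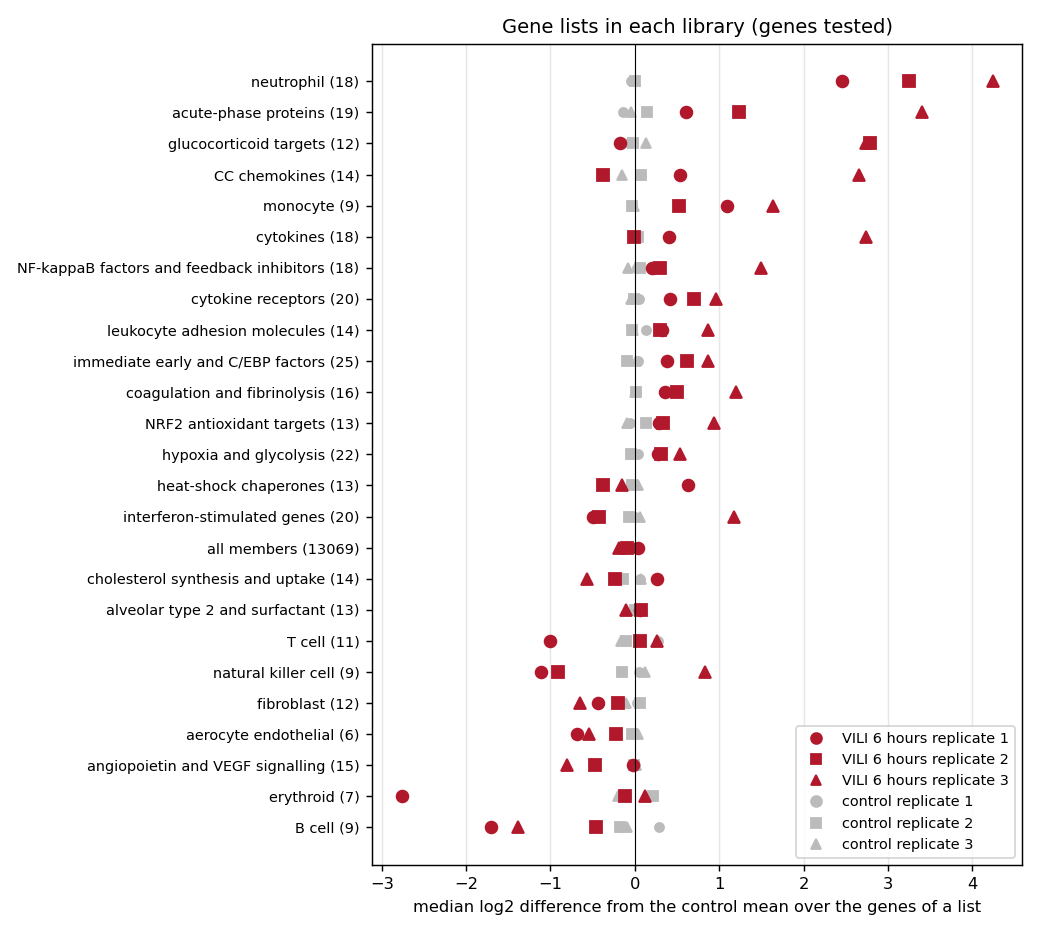
Median log2 difference from the control mean (x axis) over the genes of 24 lists and over all members (rows, with the number of genes tested), in each VILI 6 hours library (red) and each control library (grey), with circles, squares and triangles for replicates 1, 2 and 3. The neutrophil list is at 2.46 to 4.24 in all 3 VILI 6 hours libraries, the glucocorticoid targets are at -0.18 in replicate 1 and 2.79 and 2.74 in the others, and the interferon-stimulated genes are above control in replicate 3 but not in replicates 1 and 2.

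Counts of epithelial marker genes follow, and of all members 9.07% rose and 12.8% fell. Of 13 genes of alveolar type 2 cells and surfactant 1 fell and 0 rose, with a list median of 0.05, and on the median-centred scale 2 rose and 0 fell. Without VILI 6 hours replicate 1, 3 fell and 1 rose, and without replicate 3, 0 fell and 2 rose. The gene that fell was Lamp3 of lamellar bodies, from 182, 197 and 224 to 191, 146 and 152 FPKM (log2 fold change -0.31 ± 0.12, adjusted p = 0.208), and its call was lost without each of 4 libraries (-0.23 and -0.26 and not called without VILI 6 hours replicates 2 and 3, -0.32 and -0.23 and not called without control replicates 2 and 3) and on the median-centred scale. Of 11 alveolar type 1 genes 2 rose and 1 fell, but 1 rose and 4 fell without VILI 6 hours replicate 1 and 3 rose and 0 fell without replicate 3. Among them was Pdpn, podoplanin, rising from 27.2, 24.2 and 31.5 to 40.5, 59.4 and 44.9 FPKM (log2 fold change 0.79 ± 0.15, adjusted p = 0.0587). Scgb3a1, a secretoglobin of airway secretory cells, rose from 312, 253 and 353 to 565, 479 and 471 FPKM (log2 fold change 0.73 ± 0.19, adjusted p = 0.101), and was the only club cell gene of 9 that rose, with 1 that fell (2 and 3 without VILI 6 hours replicate 1). Of 9 ciliated cell genes 1 fell and 0 rose (2 and 0 without VILI 6 hours replicate 1, 0 and 1 without replicate 3). Of 14 genes of cholesterol synthesis 0 rose and 0 fell, and 8 fell without replicate 1. Of 23 cell cycle genes 1 rose and 1 fell (8 and 4 without replicate 1), and of 17 of ribosome biogenesis 2 rose and 0 fell, with 0 rises without control replicate 2, 3 falls without VILI 6 hours replicate 1 and 4 rises on the median-centred scale.

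Of 19 clock genes 1 rose and 3 fell, a share near that of all members, but 4 rose and 2 fell without VILI 6 hours replicate 1, and 5 fell without VILI 0 hours replicate 2. Nfil3, a repressor of the evening phase, rose from 1.99, 2.897 and 2.36 to 7.68, 7.93 and 16.4 FPKM (log2 fold change 2.02 ± 0.39, adjusted p = 0.0587), and its counterpart Hlf fell from 13.8, 10.1 and 11.7 to 4.17, 6.53 and 4.16 FPKM (log2 fold change -1.27 ± 0.33, adjusted p = 0.101). The hours of the day at which the mice were killed are not given in the sources used here, and the time of killing and the treatment cannot be told apart.

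The remaining lists are given by their counts, to be read beside the 9.07% of all members that rose and the 12.8% that fell. Of 22 Toll-like receptors and inflammasome genes 8 rose and 0 fell (10 and 0 without VILI 0 hours replicate 1, 11 and 0 on the median-centred scale), of 8 metallothioneins and zinc transporters 4 and 0, of 17 genes of the unfolded protein and integrated stress response 4 and 1 (7 and 0 on the median-centred scale, 5 and 3 without VILI 6 hours replicate 1), and of 21 cell junction genes 6 and 3 (3 and 1 without VILI 6 hours replicate 2, 8 and 6 without replicate 1). Of 9 EGF receptor ligands and sheddases 3 rose and 0 fell, of 11 prostaglandin and leukotriene enzymes 3 and 0, of 11 genes of nitric oxide, arginine and polyamine metabolism 3 and 0, and of 9 alveolar fluid channels and pumps 3 and 0 (6 and 0 on the median-centred scale, 5 and 0 without VILI 6 hours replicate 3). Alveolar macrophage genes rose in 4 of 10 (1 without control replicate 1) and interstitial macrophage genes in 3 of 8 (1 without control replicate 3), with 0 and 1 that fell. Of 8 MHC class II genes 1 fell, of 7 dendritic cell genes 2 (0 without control replicate 2), of 10 smooth muscle and pericyte genes 2, and 0 rose in each. On the median-centred scale 4 smooth muscle and pericyte genes rose and 0 fell, and 3 rose and 0 fell without VILI 6 hours replicate 3. On the median-centred scale 4 of the smooth muscle and pericyte genes rose and 0 fell, so that this list has no settled direction. Of 8 platelet genes 1 rose, and 7 without replicate 1. Of 9 cardiac muscle, 7 erythroid and 4 mast cell and basophil genes 0 rose and 0 fell, but 4 erythroid genes fell without VILI 6 hours replicate 3.

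**Figure D5:**
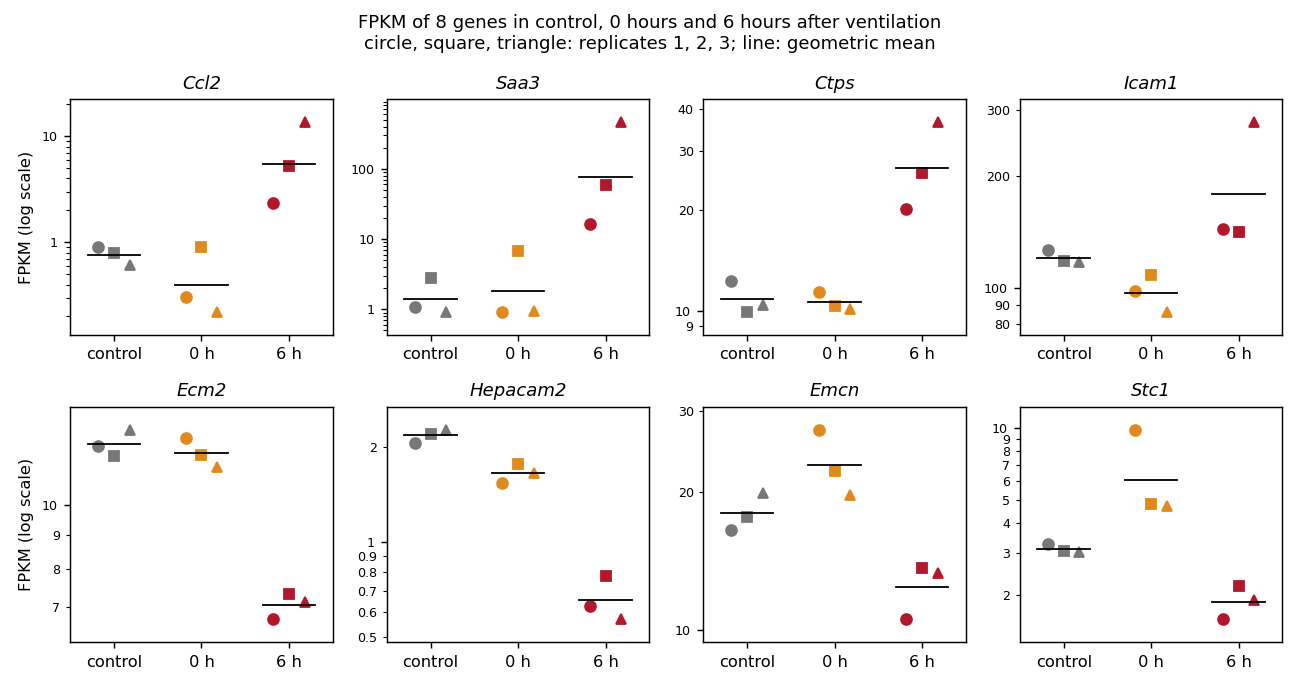
FPKM (y axes, log scale) of 8 genes in control and at both VILI times, with circles, squares and triangles for replicates 1, 2 and 3 and a line at the geometric mean. Ccl2, Saa3, Ctps and Icam1 lie highest at 6 hours, Ecm2, Hepacam2, Emcn and Stc1 lie lowest, and Icam1 and Stc1 lie on the opposite side of control at 0 hours.

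VILI 6 hours was also compared with VILI 0 hours in the same fit, to see what had changed since the end of ventilation. At an unadjusted P under 0.05, 628 members were higher at 6 hours than at 0 hours (4.81%) and 723 lower (5.53%), and after adjustment 0 passed (0.00%), the smallest adjusted p being 0.115. Without VILI 6 hours replicate 1, 284 passed, with 1073 higher and 2150 lower at P under 0.05. Without VILI 0 hours replicate 3, 387 were higher, and without VILI 0 hours replicate 2, 449 were lower. Of the members higher than control at 6 hours, 274 were also higher than at 0 hours, and of those lower, 311 were also lower. At P under 0.05, 0 of the 18 neutrophil genes were called different between the 2 times by limma, and their median difference was 0.18. S100a8, for example, was at 161, 279.6 and 203 FPKM at 0 hours (log2 difference 0.23 ± 0.44, adjusted p = 0.905). The glucocorticoid targets differed by a median of -0.81, with 1 of 12 lower at 6 hours. Replicate 1 of VILI 6 hours alone lay below the 0 hours libraries, whose list medians above control were 2.28, 1.88 and 3.17, while those of replicates 2 and 3 (2.79 and 2.74) lay between them, so that the direction of the difference rests on replicate 1.

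The genes with larger differences from 0 hours included Ccl2, at 0.302, 0.911 and 0.221 FPKM at 0 hours (log2 difference 3.48 ± 0.60, adjusted p = 0.144), Saa3, at 0.921, 6.83 and 0.951 FPKM (log2 difference 5.29 ± 1.14, adjusted p = 0.206), and Timp1, at 2.62, 4.37 and 3.21 FPKM (log2 difference 2.14 ± 0.43, adjusted p = 0.173). For Ccl2, Saa3 and Timp1 the 3 libraries of 0 hours were all below those of 6 hours. Ecm2 was at 12.6, 11.9 and 11.4 FPKM at 0 hours, level with control, and lower at 6 hours (log2 difference -0.76 ± 0.10, adjusted p = 0.115). Hepacam2 was at 1.54, 1.77 and 1.66 FPKM (log2 difference -1.22 ± 0.19, adjusted p = 0.139), Efna1 at 38.8, 38.6 and 26.6 FPKM (log2 difference -0.86 ± 0.15, adjusted p = 0.147) and Emcn at 27.4, 22.2 and 19.7 FPKM (log2 difference -0.88 ± 0.15, adjusted p = 0.144). Ctps, which makes CTP, was chosen after its values were seen and was at 12.3, 9.95 and 10.4 FPKM in control, 11.4, 10.3 and 10.1 FPKM at 0 hours and 20.1, 25.8 and 36.5 FPKM at 6 hours (log2 difference 1.32 ± 0.19, adjusted p = 0.115). The differences named passed the unadjusted threshold only.

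For 47 members the libraries of 0 hours and of 6 hours lay on opposite sides of the controls with no overlap, which is 0.36% of members, 25 of them higher at 6 hours and 22 lower, against 10.7% and 15.6% of all members that did not overlap with the controls at 6 hours, higher and lower. Of these, 13 were called higher and 11 lower than control at 6 hours. Sele, which at a mean of 0.712 FPKM is no member, lay on opposite sides too, at 0.132, 0.179 and 0.0755 FPKM at 0 hours, below the controls. Icam1, the adhesion molecule that halts rolling leukocytes, was at 127, 118 and 117 FPKM in control, 97.9, 108 and 86.2 FPKM at 0 hours and 144, 141 and 279 FPKM at 6 hours (log2 fold change 0.56 ± 0.23, adjusted p = 0.217). Its call at 6 hours was lost without each of 5 libraries (0.56 and not called without VILI 0 hours replicate 1, 0.24 and not called without VILI 6 hours replicate 3, 0.60, 0.55 and 0.54 and not called without control replicates 1, 2 and 3). Gja1, the gap junction protein connexin 43, and Stc1, the secreted stanniocalcin, were chosen after their values were seen. Gja1 was at 29.4, 34.4 and 34.1 FPKM in control, 28.5, 20.9 and 19.3 FPKM at 0 hours and 43.5, 39.7 and 54.6 FPKM at 6 hours (log2 fold change 0.48 ± 0.17, adjusted p = 0.168, 0.35 and not called without VILI 6 hours replicate 3, 0.41 and not called without control replicate 1). Stc1 was at 3.25, 3.04 and 3.01, 9.86, 4.81 and 4.73 and 1.58, 2.16 and 1.902 FPKM (log2 fold change -0.70 ± 0.27, adjusted p = 0.196, -0.59 and not called without VILI 6 hours replicate 1, -0.67, -0.71 and -0.72 and not called without control replicates 1, 2 and 3), and was not called at 6 hours on the median-centred scale.

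The members with the widest spread between the VILI 6 hours libraries (mean of at least 10 FPKM) were Gm45717, Ccl20, Gm13889, Cdc42bpg and Ccl21a, and none of them passed the test. Ccl20, an attractant of dendritic cells and lymphocytes, was at 0.1699, 0.7297 and 0.114 FPKM in control and 1.88, 0.139 and 87.7 FPKM at 6 hours, and Ccl21a, the lymph node chemokine with near-identical copies, at 17.7, 15.3 and 14.9 FPKM against 15.8, 6.92 and 0 FPKM at 6 hours. Gm13889 was at 23.99, 27.6 and 22.4 FPKM against 0.326, 54.7 and 98.7 FPKM at 6 hours. Cdc42bpg was at 15.3, 0 and 13.6 FPKM in control and 16.9, 16.2 and 0 FPKM at 6 hours, where the 0 may be a failed estimate, since 1 control is at 0 too. The library far from the other 2 was replicate 3 in Gm45717, Ccl20 and Cdc42bpg, and replicate 1 in Gm13889. In Ccl21a it was replicate 3 on the log2 scale, there at 0 FPKM and lowest.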

How the data were processed

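Whole lung of mice was sequenced in 9 libraries, 3 of control and 3 of each VILI time. Reads with adapter, poly-N or low quality were removed by the authors, aligned to GRCm38 (TopHat2 2.0.9 and Bowtie2 2.0.6 in the submitters' processing notes), assembled with Scripture and Cufflinks and quantified with Cuffdiff 2.1.1. The methods of the study name rRNA depletion and the labels another kit, which was not settled, and intronic or non-polyadenylated RNA may weigh in the values. The deposited values are FPKM per transcript, 1 column for each library, and 0 columns of per-sample values were left out. The deposited FPKM hold no counts, so the depth behind a value cannot be read from them, and the read totals that the study lists for each library were not used here. The columns sum to 366360 to 388459 FPKM, and the precision is set by the 3 replicates. The labels only number the replicates, but the study describes 3 mice in each group, so P measures the spread between single mice.

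FPKM was summed over the 60108 transcript rows per gene identifier, and 23503 of 23713 Ensembl identifiers were matched to GENCODE M21. Log2(FPKM + 0.1) of the 19378 genes with a mean of at least 0.1 FPKM over the 9 libraries was fitted with limma 3.58.1 (R 4.3.3, lmFit and eBayes with a trend) with the group as the only factor, and P was adjusted by Benjamini-Hochberg over all of them. Fold changes on this scale understate those of low genes, and an exact 0, found for 42 members in at least 1 of the 6 libraries compared, may be a failed estimate. A gene was called at an unadjusted two-sided P under 0.05, and "rose" and "fell" refer to such calls. An exact permutation test of 3 against 3 libraries cannot go below 0.1 and was not used. The members and the 52 gene lists were chosen with earlier results of these data known.

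Genes were named by a rule: those with an adjusted p under 0.05, up to the 15 smallest P, the 12 largest rises and falls whose groups did not overlap, the 5 largest rises and falls at a mean of at least 100 FPKM, up to 4 called genes of each list by size of change (otherwise its 2 most abundant genes), 2 genes on each side of 1 FPKM, 6 tissue markers, and the 5 members of at least 10 FPKM with the widest spread at 6 hours. C3, Camp, Ccl6, Clec4e, Ctps, Cxcl1, Cxcl10, Cxcl5, Gja1, Icam1, Il17ra, Jak3, Junb, Lifr, Lrg1, Ltf, Ngp, Osmr, Saa1, Stc1, Tek, Tnf and mt-Nd4l were named after their values were seen. Some genes that the rule selects are not reported here. The fit was tested on simulated data for VILI 6 hours against control with 19378 genes, where 88% of genes changed by 1 on the log2 scale and 99% of those changed by 3 were called, with 5.21% of unchanged genes. After adjustment 50% and 91% were recovered, with 8 unchanged genes among the calls. The simulation gave each gene the same spread in every group, whereas in the data the median SD was 0.266 at 6 hours and 0.0996 in control. These rates may therefore not hold for the data. Alternatives were other pseudocounts (0.01 and 1), filters, libraries centred on their median, only the 6 libraries, the replicate number as a block, no trend, array weights, the most abundant row of each gene, and each library left out. Promoters are from RefSeq (GRCm38.p6). Assembled loci without an Ensembl identifier and non-coding genes were fitted only for the adjustment. Python 3.11.15, pandas 2.3.3, numpy 2.4.6 and matplotlib 3.10.9 were also used.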

Additional observations from a re-analysis of the deposited data

Results flagged for a closer look

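In 4 of the genes named above the libraries of the 2 VILI times lay on opposite sides of the control libraries, with no overlap. Icam1 was below every control at 0 hours and above every control at 6 hours, with a log2 difference between the times of 0.88 (adjusted p = 0.286). Gja1 moved in the same order, with a difference of 1.01 (adjusted p = 0.143). So did Sele, with a difference of 2.54 (adjusted p = 0.273). Stc1 was above the controls at 0 hours and below them at 6 hours, with a difference of -1.65 (adjusted p = 0.143). None of the 4 differences passed the adjustment, and no cause was tested. Groups of 3 libraries are too small for the test of a library far from the others.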

How the results depend on the processing

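The direction of the 129 named genes that were called was the same under each of the 19 alternatives that gave a value (for Sele and Klre1 the filter at a mean of 1 FPKM gives none), and 107 of them kept the call in each. Of 1288 values from alternatives other than a library left out, 34 lost the call, and of 1161 values with 1 library left out 65 did. The counts were less stable than the genes. Array weights (fitted gene by gene, as the default method did not converge, with weights of 0.203, 2.49 and 0.338 for VILI 6 hours replicates 1, 2 and 3, so that replicate 2 carries that group) gave 2139 rises, 3914 falls and 4547 adjusted calls, and for 6 against 0 hours 1277 higher, 1973 lower and 362 adjusted. Median-centred libraries gave 1095 falls. The 118 adjusted calls became 57 with no filter, 34 with only the 6 libraries compared (which gives no value for 6 against 0 hours), 22 without a trend and 16 with the most abundant row of each gene. With 1 library left out, rises ranged from 800 to 1788, falls from 963 to 3856 and adjusted calls from 0 to 3506, and for 6 against 0 hours 387 to 1073 were higher, 449 to 2150 lower and 0 to 284 adjusted. Of 987 medians of lists, 28 moved by over 1 SD of the replicates. With the replicate number as a block there were 1074 rises, 1414 falls and 38 adjusted calls, and 3 named genes lost the call. Deviations of same-numbered libraries correlated at -0.275 to 0.0537, and not every library correlated best with its own number. No pairing by number was seen, but 3 libraries in each group cannot exclude one. The causes of these differences were not tested. FPKM holds no counts, so no counting error could be given, and 3 libraries, of which 1 lay near control, limit which changes at 6 hours could be detected.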
